A study of Mus musculus with 6 samples.

Results

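The miR-30 family was examined in type H and type L endothelial cells (ECs) of mouse bone, over both arms of its hairpins. The members were taken by name: the 5p arms mmu-miR-30a-5p, mmu-miR-30b-5p, mmu-miR-30c-5p, mmu-miR-30d-5p and mmu-miR-30e-5p, called the guides here, and the 3p arms mmu-miR-30a-3p, mmu-miR-30b-3p, mmu-miR-30c-1-3p, mmu-miR-30c-2-3p and mmu-miR-30e-3p. The prefix for mouse is left out below. They are 10 of the 1881 mouse miRNAs on the array. The measurement was made on 1-colour (Cy3) Agilent miRNA microarrays, with 3 arrays of type H ECs (CD31hiEmcnhi) and 3 arrays of type L ECs (CD31loEmcnlo). Type H vessels are the bone capillaries in which vessel growth is coupled to bone formation. Per the labels, all cells came from the bone marrow of male wild type C57BL/6 mice aged 1 month, were sorted on CD31 and endomucin, and were cultured on fibronectin in EBM-2 endothelial growth medium before RNA was extracted. No agent or modified allele was used in either group. The study's methods differ from the labels in giving female mice. The study's account of the arrays describes cells sorted from bone marrow and mentions no culture step. The labels call the arrays biological replicates and do not say how many animals each holds, so the p-values measure the spread between these arrays.

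MicroRNAs pair with target transcripts mainly through the seed, the bases at positions 2 to 8 counted from the 5′ end, and lower their stability or translation. A hairpin gives up to 1 mature miRNA from each arm. In the miR-30 family the 5p arms are the ones usually loaded as guides, and the 3p arms, which have other seeds, are mostly discarded. In endothelium miR-30 guides are known for targeting the Notch ligand Dll4 in sprouting vessels, and in osteoblasts for targeting Runx2 and Smad1, which drive bone formation.

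The mature sequences are shown because the shared seed defines the family, and the bases outside it are what the probes must tell apart. RefSeq (GRCm38.p6) held 7 of the 10 members among 1679 mature mouse miRNA names. Seeds are in capitals:
miR-30a-5p: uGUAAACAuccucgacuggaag
miR-30c-5p: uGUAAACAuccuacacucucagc
miR-30e-5p: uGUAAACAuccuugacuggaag
miR-30a-3p: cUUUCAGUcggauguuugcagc
miR-30e-3p: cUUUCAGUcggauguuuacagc
miR-30c-1-3p: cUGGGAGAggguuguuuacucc
miR-30c-2-3p: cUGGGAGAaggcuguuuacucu

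The 3 guides in this set share the seed GUAAACA and 12 bases from the 5′ end. miR-30a-5p and miR-30e-5p differ at 1 position, C13U, counted from the 5′ end with the base of miR-30a-5p first. Among all the names, GUAAACA was the seed of 4, and the other one, miR-384-5p, was detected on 0 arrays. The 3p arms form separate seed groups: miR-30a-3p and miR-30e-3p share UUUCAGU and differ at G18A, and miR-30c-1-3p and miR-30c-2-3p share UGGGAGA and differ at G9A, U12C and C22U.

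The hairpins lie in pairs on 3 chromosomes (GRCm38.p6). Mir30a, at chr1:23272269-23272339, lies 19361 bases from Mir30c-2, at chr1:23291701-23291784, and the RefSeq gene table lists no other gene over either. Mir30c-1, at chr4:120769534-120769622, lies 2983 bases from Mir30e, at chr4:120772606-120772697, and both are within the protein-coding gene Nfyc. Mir30b, at chr15:68337415-68337510, lies 3697 bases from Mir30d, at chr15:68341208-68341289. miR-30c-5p has the same sequence from Mir30c-1 and Mir30c-2, so its signal cannot be divided between chromosomes 1 and 4.

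Each member was read by 2 to 4 probes of different length on 30 spots of an array, and the longest probes of the 7 with a RefSeq sequence were complementary to its 3′ part. The longest probe of each guide is printed 5′ to 3′, with the bases that differ from the miR-30a-5p probe in capitals. The probes of miR-30d-5p and miR-30e-5p are aligned with it at the 5′ end, and those of miR-30b-5p and miR-30c-5p at the 3′ end:
miR-30a-5p: cttccagtcgaggatgt
miR-30e-5p: cttccagtcAaggatgt
miR-30d-5p: cttccagtcgGgga
miR-30b-5p: AGCTGagtGTaggatgt
miR-30c-5p: GctGAGagtGTaggatgt

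The miR-30e-5p probe differs from that of miR-30a-5p by G10A and the shorter miR-30d-5p probe by A11G, counted from the 5′ end of the probe with the base of miR-30a-5p first. How much signal probes this alike share was not tested.

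On each array 263 to 309 miRNAs were detected by the scanner software, and 231 were detected on all 6. Slide 1 held the type H arrays and slide 2, scanned separately, the type L arrays, and the effects of slide and of cell type cannot be told apart. Of 10 control features detected on all 6 arrays, 9 were brighter in type H ECs with no overlap, by a median log2 difference of 0.60 over the 10 and a range of 0.21 to 1.47. The share of this control difference in the miR-30 values was not tested. The control values are deposited totals, which for some miRNAs held the signal of another, as described below. The totals of the controls were not checked for this. The endothelial markers miR-126a-3p and miR-126a-5p, which ECs normally hold in abundance, were detected on 0 arrays, and their summed signal was 2.49 to 4.74 on the type H arrays and 0.107 to 0.666 on the type L arrays. The 7 haematopoietic miRNAs checked were also detected on 0 arrays, with a summed signal of 6.57 to 7.999 in type H ECs and 4.71 to 5.42 in type L ECs. Of the 7 mural and stromal miRNAs checked, which include miR-143-3p and miR-145a-5p, 6 were detected on all 6 arrays. After quantile normalization 5 of the 7 were called higher and 1 lower in type H ECs by the limma test described below, where 44.7% of all miRNAs were called higher and 42.1% lower, and their summed signal was 898 to 1137 in type H ECs and 769 to 879 in type L ECs. The part of any other cell type in the values below was not tested.

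The signal of a miRNA is the sum of the totals of its probes, in arbitrary units, before any normalization. miR-30a-5p was at 224, 183 and 177 on the type H arrays and 146.3, 151.8 and 156.6 on the type L arrays. The cell types did not overlap, with type H ECs brighter, and the brightest was type H array 1. miR-30c-5p was at 53.8, 44.3 and 43.8 in type H ECs and 43.3, 44.7 and 47.8 in type L ECs. miR-30b-5p was at 33.2, 26.5 and 25.6 in type H ECs and 25.8, 27.4 and 30.7 in type L ECs. For both of these the cell types overlapped, and type H array 1 was again the brightest.

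miR-30d-5p was at 33.5, 30.5 and 28.4 on the type H arrays and 31.9, 34.2 and 34.9 on the type L arrays. miR-30e-5p was at 21.3, 16.2 and 16.8 on the type H arrays and 19.0, 19.9 and 21.3 on the type L arrays. The cell types overlapped for both, through type H array 1, while arrays 2 and 3 of type H were below every type L array. The signals of different miRNAs are read by different probes and are not compared in level.

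Among the 3p arms, miR-30a-3p was at 14.95, 13.0 and 11.6 on the type H arrays and 8.23, 9.19 and 9.02 on the type L arrays. miR-30c-2-3p was at 4.51, 3.96 and 3.71 in type H ECs and 3.07, 3.001 and 3.22 in type L ECs. For both, type H ECs were brighter with no overlap. miR-30b-3p was at 2.92, 2.78 and 3.11 in type H ECs and 3.77, 3.14 and 2.998 in type L ECs, with overlap. The last 2 of the 10 were dim: miR-30e-3p was detected on type H array 1 alone, with signals of 1.92 to 3.04 over the 6 arrays, and miR-30c-1-3p was detected on 0 arrays, with signals of -0.071 to 1.44. The array also holds miR-30d-3p and miR-30f, which are outside the member list, and both were detected on 0 arrays.

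**Figure D1:**
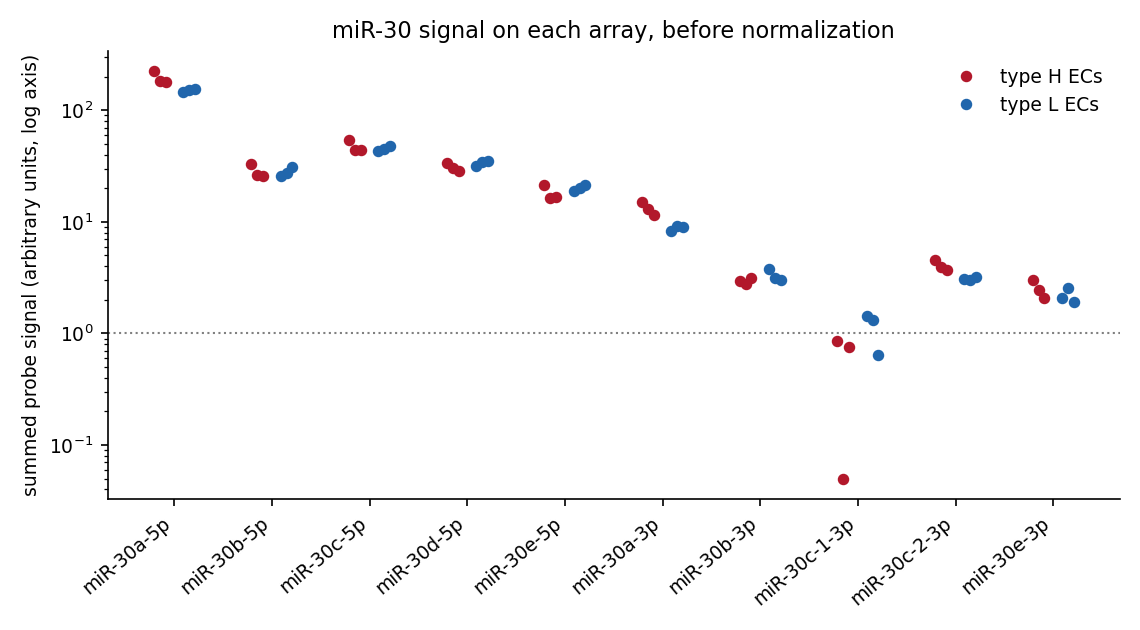
Summed probe signal of the 10 miR-30 members on each array before normalization (log axis, arbitrary units); each point is 1 array, red for type H ECs and blue for type L ECs, and the dotted line is a signal of 1. miR-30a-5p, miR-30a-3p and miR-30c-2-3p lie higher in type H ECs with no overlap, and miR-30c-1-3p on type H array 2, measured at -0.071, is drawn at the foot of the axis.

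The comparison of the cell types asks which miRNAs are at other levels in type H than in type L ECs. After quantile normalization, which gives all arrays the same distribution of signals and is the method the study names, 8 of the 10 members passed the filter, which asks that a miRNA be detected on all 3 arrays of type H ECs, of type L ECs or of both. Of these 8, 7 were called higher and 0 lower in type H ECs by limma at an adjusted p of 0.05, over 311 miRNAs tested. Over all 311 miRNAs, 86.8% were called, 44.7% higher and 42.1% lower. A call by itself therefore sets a member apart little from the other miRNAs of these arrays, and the sizes are given with that in view. The arrays hold RNA from whole cell populations, so a change in the kinds of cells present and a change within each cell cannot be told apart.

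Among the guides, miR-30a-5p was higher by a log2 difference of 0.35 (SE 0.029, limma adjusted p = 8.93e-05, n = 3 and 3). miR-30b-5p was higher by 0.38 (SE 0.066, limma adjusted p = 0.0023), and miR-30c-5p by 0.26 (SE 0.030, limma adjusted p = 0.000333). miR-30d-5p was higher by 0.21 (SE 0.042, limma adjusted p = 0.00399), and miR-30e-5p by 0.11 (SE 0.038, limma adjusted p = 0.033). Quantile normalization gave miR-30b-5p and miR-30c-5p the same value on all 3 type H arrays, because each held the same rank there, and their SEs hold no spread among those arrays. The median log2 difference of the 5 guides was 0.26, beside 0.026 over all 311 miRNAs and 0.11 over the 231 detected on all arrays.

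Of the 3 tested 3p arms, 2 had larger differences than the guides on this scale. miR-30a-3p was higher in type H ECs by a log2 difference of 0.91 (SE 0.049, limma adjusted p = 1.77e-05), a fold of 1.87. miR-30c-2-3p was higher by 0.74 (SE 0.046, limma adjusted p = 2.81e-05), a fold of 1.67. miR-30b-3p was at 0.19 (SE 0.16, limma adjusted p = 0.312), and its arrays overlapped between the cell types. The other 7 members did not overlap, all with type H ECs higher, beside 87.8% of all miRNAs tested and 45.7% in that direction.

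The sign of several members depended on how the arrays were scaled. Without normalization, the median log2 difference of the 231 miRNAs detected on all arrays was -0.12, and with each array divided by the 75th percentile of those miRNAs it was -0.22, against 0.11 after quantile normalization. The split of the calls over all miRNAs moved with it: the share that was higher in type H ECs was 51.5% with quantile normalization, 40.3% without normalization and 35.8% after the 75th percentile. Without normalization, 3 members were called, all higher, with 75.9% of all miRNAs called, 30.5% higher and 45.3% lower. After the 75th percentile, 5 were called, 3 higher and 2 lower, with 88.1% of all miRNAs called, 31.5% higher and 56.6% lower.

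The same members were called higher under both scalings: miR-30a-5p, miR-30a-3p and miR-30c-2-3p. miR-30a-5p was higher by a log2 difference of 0.36 without normalization (limma adjusted p = 0.0149) and by 0.26 after the 75th percentile (limma adjusted p = 0.00175). miR-30a-3p was higher by 0.57 (limma adjusted p = 7.53e-05) and 0.47 (limma adjusted p = 5.43e-05), and miR-30c-2-3p by 0.39 (limma adjusted p = 0.00799) and 0.29 (limma adjusted p = 0.00382). Without normalization limma gave every member tested the same SE, 0.14, so those p-values hold none of a member's own spread between arrays. Each of the 3 members was past the threshold and higher in type H ECs under all 22 alternatives run. Those that changed only the filter, the floor or the test kept the same log2 differences and do not test the direction. All alternatives share these slides, and none scaled by the control features, whose median log2 difference was 0.60. For miR-30c-2-3p the deposited totals, among these alternatives, held mostly the signal of miR-30b-5p. The 3 members are products of the hairpins on chromosome 1, Mir30a and Mir30c-2, an observation made after their values were seen. The fourth product of that pair, miR-30c-5p, which is also made from chromosome 4, was at 0.059 without normalization and -0.042 after the 75th percentile and was called under neither.

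The guides of the other chromosomes had no direction common to the scalings. miR-30d-5p, from chromosome 15, was at a log2 difference of -0.13 without normalization and was called lower after the 75th percentile, at -0.23 (limma adjusted p = 0.00889). miR-30e-5p, from chromosome 4, was at -0.16 without normalization and was called lower after the 75th percentile, at -0.26 (limma adjusted p = 0.00392). With type H array 1 left out, miR-30e-5p was also called lower without normalization, at -0.28 (limma adjusted p = 0.00991). miR-30b-5p was at 0.017 and -0.083 and was called under neither.

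The values were also taken relative to the median of the 231 miRNAs, where those without normalization and those after the 75th percentile are equal by construction. miR-30a-5p stood 0.24 above that median on the log2 scale after quantile normalization and 0.47 without normalization. miR-30c-5p stood 0.15 and 0.17 above it, and miR-30b-5p 0.27 and 0.13 above it. miR-30d-5p was at 0.11 and -0.014 from the median, and miR-30e-5p at 0.0068 and -0.040. miR-30a-3p stood 0.80 and 0.69 above the median and miR-30c-2-3p 0.63 and 0.50. Of the 231 miRNAs, 85.7% had a lower difference than miR-30a-3p without normalization, and 46.3% a lower one than miR-30e-5p. The share was 75.8% for miR-30c-2-3p and 72.3% for miR-30a-5p.

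**Figure D2:**
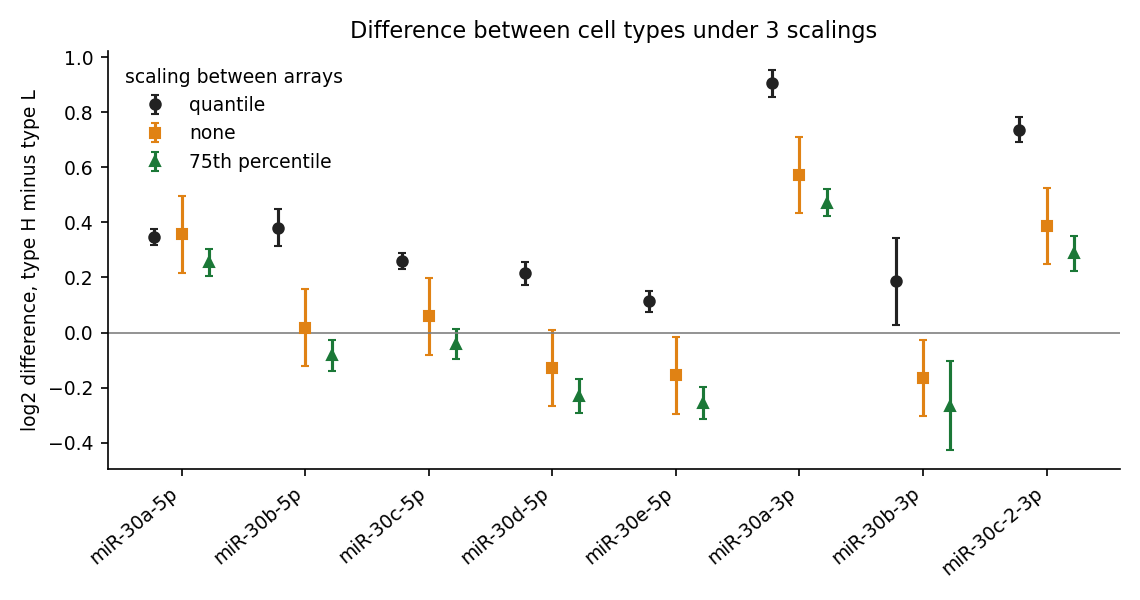
Log2 difference (type H minus type L) of the 8 members tested, with the SE of the limma fit as bars, under quantile normalization (black circles), no normalization (orange squares) and the 75th percentile of the 231 miRNAs (green triangles). Without normalization the SE is the same for every member. miR-30a-5p, miR-30a-3p and miR-30c-2-3p lie above 0 under all 3 scalings, and the other 5 members lie on both sides of 0.

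Comparing guides with each other on the same array leaves out a factor that multiplies all signals of an array alike. An effect of the slide that differs between bright and dim signals would remain, and was not tested. Without normalization, the log2 ratio of miR-30a-5p to the mean of the 5 guides was 2.19, 2.18 and 2.17 on the type H arrays and 1.88, 1.86 and 1.82 on the type L arrays, a difference of 0.33 with no overlap. The ratio of miR-30d-5p to that mean was lower in type H ECs, with a difference of -0.16, and so was that of miR-30e-5p, with a difference of -0.19, and neither overlapped. miR-30b-5p differed by -0.012, with overlap, and miR-30c-5p by 0.029, without. The ratio to a mean is a description, since each guide is part of the mean.

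Of the 10 pairs of guides, 7 did not overlap between the cell types without normalization, beside 86.8% of all 26565 pairs of miRNAs detected on all arrays, and 6 did not overlap after quantile normalization, beside 86.0% of pairs. miR-30a-5p was above each of the other 4 guides in its unscaled difference, by 0.30 (SE 0.021) against miR-30c-5p, 0.34 (SE 0.048) against miR-30b-5p, 0.49 (SE 0.048) against miR-30d-5p and 0.51 (SE 0.040) against miR-30e-5p. Each of these pairs had an exact two-sided permutation p of 0.1, the smallest that 3 arrays against 3 allow, and 0.143 after adjustment over the 10 pairs. The pair that differs by the fewest bases where both sequences were held, miR-30a-5p and miR-30e-5p, had the widest unscaled gap of the 10. The widest gap after quantile normalization was that of miR-30b-5p against miR-30e-5p, at 0.27 (SE 0.043). Signal shared between their probes was not tested. After quantile normalization the gaps of miR-30a-5p were smaller, at -0.032 against miR-30b-5p, 0.089 against miR-30c-5p, 0.13 against miR-30d-5p and 0.24 against miR-30e-5p, and those against miR-30b-5p and miR-30d-5p overlapped. miR-30d-5p and miR-30e-5p did not separate from each other without normalization, with a difference of 0.026 (SE 0.077).

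**Figure D3:**
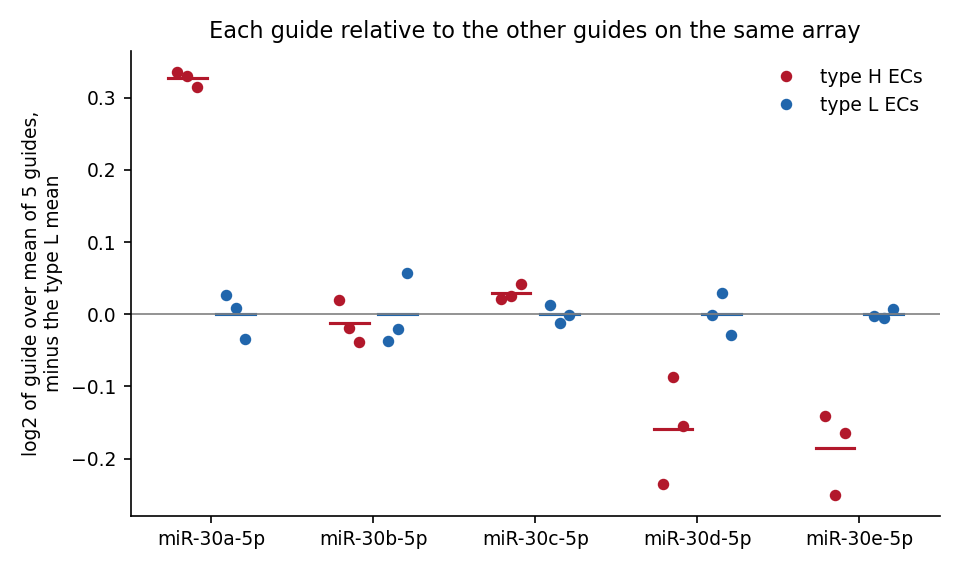
Log2 ratio of each guide to the mean of the 5 guides on the same array, without normalization, with the type L mean of each guide set to 0; each point is 1 array and each bar the mean of 3. miR-30a-5p lies 0.33 higher in type H ECs, miR-30d-5p and miR-30e-5p lie at -0.16 and -0.19, and miR-30b-5p overlaps.

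The arms of a hairpin were compared on the same array in 3 cases where both arms passed the filter. The log2 difference of miR-30a-5p minus miR-30a-3p, after quantile normalization, was 3.74, 3.64 and 3.76 on the type H arrays and 4.37, 4.18 and 4.27 on the type L arrays. It was lower in type H ECs, with a difference of -0.56 (SE 0.067), with no overlap, so the 3p signal was higher relative to the 5p signal in type H ECs. For miR-30c-5p minus miR-30c-2-3p the values were 3.40, 3.40 and 3.36 in type H ECs and 3.91, 3.85 and 3.84 in type L ECs, a difference of -0.48 (SE 0.027), with no overlap. For the miR-30b arms the difference was 0.19 (SE 0.22), with overlap. Among all pairs of miRNAs detected on all arrays, 86.0% did not overlap on this scale. Lack of overlap therefore sets an arm pair apart little. The exact two-sided permutation p was 0.1 for miR-30a and miR-30c-2 and 0.5 for miR-30b, and 0.15, 0.15 and 0.5 after adjustment over the 3 hairpins, so none passed 0.05.

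Without normalization, 86.8% of all pairs of miRNAs detected on all arrays did not overlap. The arm differences on that scale were -0.22 for miR-30a (SE 0.046), -0.33 for miR-30c-2 (SE 0.038) and 0.18 for miR-30b (SE 0.22), with the same overlap. With normexp background correction, which started from the raw spot means and added an offset of 50, the first 2 turned to 0.068 and 0.094. The differences were then 0.26 for miR-30a-3p and 0.090 for miR-30c-2-3p, against 0.32 for miR-30a-5p and 0.18 for miR-30c-5p. The signs of these arm differences thus changed with that setting, and which of its steps moved them was not tested. In the authors' log2 table, described below, the arm differences were -0.57 for miR-30a, -2.72 for miR-30b and -2.49 for miR-30c-2. There the sign for miR-30b was reversed. The pairs of miR-30e and miR-30c-1 were not tested, because their 3p arms did not pass the filter.

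**Figure D4:**
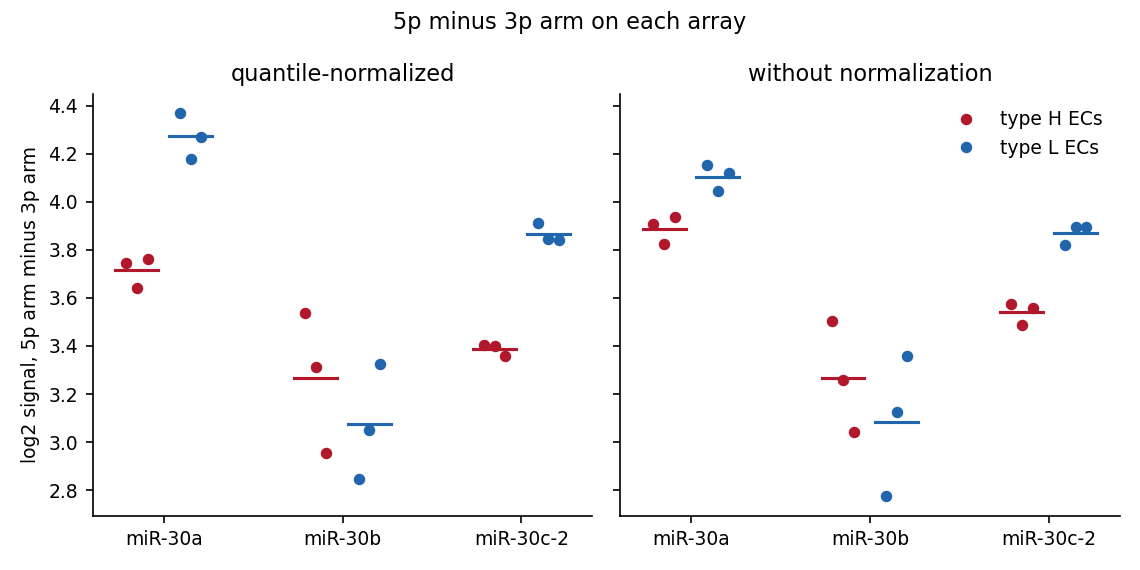
Log2 signal of the 5p arm minus that of the 3p arm on each array, after quantile normalization (left) and without normalization (right); each point is 1 array and each bar the mean of 3. Type H ECs lie below type L ECs for miR-30a and miR-30c-2 in both panels, and the cell types overlap for miR-30b.

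The probes of a member could be compared with each other. Of the 25 member probes, 17 had a total above 1 on all 6 arrays. After quantile normalization over probes, all 17 were higher in type H ECs. Without normalization 12 were, and 15 were after the 75th percentile of probes above 1 on all arrays. The share over all probes of the array was not computed, so these counts do not set the family apart. Without normalization, the 3 probes of miR-30a-5p, of 15, 16 and 17 bases, gave log2 differences of 0.16, 0.29 and 0.41, and after quantile normalization over probes 0.45, 0.28 and 0.45, all in the same direction. These probes were at 17.4, 58.5 and 148 on type H array 1, so the unscaled difference was larger for the brighter probes. Whether differences rise with brightness on these slides was not tested. The probes of miR-30a-3p, of 16 and 17 bases, gave 0.54 and 0.59 without normalization. On that scale both probes of miR-30d-5p were negative, at -0.16 and -0.11, and so were both of miR-30e-5p, at -0.23 and -0.13. The miR-30b-5p probes of 16 and 17 bases were at 0.14 and -0.013, on either side of 0. For miR-30c-2-3p, 1 of 2 probes had a total above 1 on all arrays, with a difference of 0.50, and its signal rests on that probe.

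The deposited total per miRNA differed from the sum of its own probes on at least 1 array for 4 members. For the dim miR-30c-1-3p and miR-30e-3p it was 0.1 wherever they were not detected, and 2.36 for miR-30e-3p on type H array 1. For the other two it held the signal of another member. The deposited total of miR-30b-3p on type H array 1 was 226.9, which equals the total of miR-30a-5p plus a part of its own, and on all 6 arrays its own probes summed to 1.29 to 2.53% of the deposited value. The deposited total of miR-30c-2-3p likewise held the total of miR-30b-5p, with 9.62 to 13.0% from its own probes. These last matches held within a relative tolerance of 1e-05, and the sums of probe totals were used here for that reason. In the authors' log2 table all 8 members were called higher in type H ECs, where 84.2% of all miRNAs were called, 43.7% higher and 40.5% lower. The guides and miR-30a-3p (0.92) had values close to those above, while miR-30b-3p was at 3.10 (limma adjusted p = 0.00042) and miR-30c-2-3p at 2.76 (limma adjusted p = 0.000139). From the probe sums miR-30b-3p was at 0.19 and was not called, and miR-30c-2-3p was at 0.74. The size for these dim arms thus depended strongly on which of the 2 was used, and for miR-30b-3p so did the call.

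Other miRNAs tied to the pathways that miR-30 is known for were listed for context. Of 12 miRNAs tied to Notch ligands, receptors or Numb, 7 were tested, and 3 were called higher and 1 lower in type H ECs after quantile normalization, with a median log2 difference of 0.062. miR-27b-3p, whose family is known to target Dll4, was higher by 0.41 (SE 0.038), and miR-27a-3p by 0.78 (SE 0.044). miR-206-3p, known mainly from muscle, was higher by 0.62 (SE 0.053), and miR-34c-5p, of a family that targets Notch receptors, was lower, at -0.20 (SE 0.052). Of 12 miRNAs tied to Runx2, 4 were tested, and 2 were called in each direction: miR-23a-3p (0.52, SE 0.048) and miR-103-3p (0.52, SE 0.030) higher, miR-218-5p (-0.68, SE 0.045) and miR-34c-5p lower. These counts lie beside 44.7% higher and 42.1% lower over all miRNAs tested.

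The 5 miRNAs outside the family whose pattern over the 6 arrays was nearest to the mean of the guides, among those detected on all arrays, were miR-1839-3p, miR-16-5p, let-7f-5p, let-7a-5p and miR-199a-5p. Their root-mean-square distance from it was 0.027 to 0.035 on the centred log2 scale after quantile normalization. Their log2 differences were 0.21 to 0.31, beside a mean of 0.26 for the guides.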

How the data were processed

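MiRNA was measured on 6 1-colour Agilent arrays. Per the study's methods, the authors extracted background-subtracted, detrended spot intensities with Feature Extraction 10.7.1.1, and these were deposited without normalization between arrays. The authors also deposited a table of log2 values, which the methods describe as quantile-normalized; its column medians were -3.26 to -3.32, and its offset at the floor is unknown. The labels describe a cRNA labelling kit and the methods labelled small RNA, and the files name another array design than the methods do. The members and lists were chosen with earlier results of these data known.

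Here the totals of a miRNA's probes were summed, quantile-normalized over 1881 miRNAs, floored at 1 and log2-transformed. Requiring a miRNA to be detected on all 3 arrays of either or both cell types, as the authors did, left 311 miRNAs. The fit used limma 3.58.1 (lmFit, eBayes; R 4.3.3) with Benjamini-Hochberg adjustment over the 311. Guide pairs and arms were compared by exact two-sided permutation over arrays. All 10 members are named, and list members by whether they were called. On simulated data for type H against type L with 311 miRNAs, 38 of 60 changes of 0.3 and 60 of 60 changes of 1 on the log2 scale were recovered, with 3 and 1 unchanged miRNAs called. The simulation held no slide effect and no normalization step, so it does not measure errors that come from these. The number of arrays limits the precision.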

Additional observations from a re-analysis of the deposited data

How the results depend on the processing

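The 7 members called became 3 with the 75th percentile over all miRNAs and 3 without normalization. With single arrays left out the count was 6 to 7. Of all 311 miRNAs, 253 were called with the 75th percentile over all miRNAs, 40.7% of them higher in type H ECs. With single arrays left out, 260 to 266 of the 311 were called, so 6 to 7 members called set the family apart little. The median guide difference of 0.26 became 0.18 with normexp, 0.017 without normalization, 0.020 with the 75th percentile over all miRNAs and -0.083 with that over miRNAs detected on all arrays, and was 0.24 to 0.28 with single arrays left out. The mean arm difference of -0.28 became 0.12 with normexp, -1.93 in the authors' table, -1.07 with the own part of the deposited totals and -0.12 under the 3 other scalings, and was -0.33 to -0.23 with single arrays left out. Non-overlapping guide pairs were 6 to 8 with single arrays left out, where the share of all pairs was not computed. Without type H array 1, added after the data were seen, 4 members were called without normalization, 3 higher and 1 lower, with 259 of all 311 miRNAs called and 94 of them higher; the guide median was -0.099 without normalization and -0.080 after the 75th percentile, and the mean arm difference was -0.17 under both.

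Reversed without normalization were miR-30d-5p (-0.13), miR-30e-5p (-0.16) and miR-30b-3p (-0.17). With the 75th percentile over detected miRNAs these were at -0.23, -0.26 and -0.27, with miR-30b-5p at -0.083 and miR-30c-5p at -0.042; over all miRNAs they were at -0.13, -0.15 and -0.16. Without type H array 1 the values of miR-30b-5p, miR-30c-5p, miR-30d-5p, miR-30e-5p and miR-30b-3p were -0.099, -0.037, -0.19, -0.28 and -0.16 without normalization, and -0.080, -0.018, -0.17, -0.26 and -0.14 after the 75th percentile. Of 176 member values, 138 kept direction and call, 14 lost the call, 3 gained it and 21 reversed. Settings that changed only the filter, the floor or the test kept the same log2 differences, so no member could reverse there. The cause was not tested. miR-30e-5p lost its call in many settings, among them the deposited totals (limma adjusted p = 0.127) and no filter (limma adjusted p = 0.0939), where limma warned that most residual variances were 0.

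Deviations of same-numbered arrays correlated at -0.0055, -0.025 and 0.12, so the numbers were not taken to pair arrays. With the replicate number as a block, 6 members were called, with 262 of all 311 miRNAs called and 134 of them higher. There miR-30e-5p was at a limma adjusted p of 0.0646. A block for slide could not be fitted, since each cell type had a slide of its own.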
